A study of Mus musculus with 24 samples.

Results

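The 9 genes described here encode β-synuclein (*Sncb*), γ-synuclein (*Sncg*), the amyloid precursor protein (*App*), tau (*Mapt*), huntingtin (*Htt*), huntingtin-associated protein (*Hap1*), leucine-rich repeat kinase (*Lrrk2*), DJ-1 (*Park7*) and copper-zinc superoxide dismutase (*Sod1*). They were selected by symbol from the 24079 genes of the deposited count table and are all measured in each of the 24 libraries. *Sncb* and *Hap1* were selected for changes between genotypes in polysomes, so for these 2 genes that difference is given as a description without a test. The libraries came from rpS6 P-/- mice, a constitutive knockin line in which the phosphorylatable serines of ribosomal protein S6 are replaced by alanines, and from their wild-type littermates, males and females on a mixed C57Bl/6/Sv129/ICR background. For each genotype, the ventral part of the striatum, the nucleus accumbens (Acb), and its dorsal part (DS) were dissected, tissue of several mice was pooled, an aliquot of the lysate was kept for total RNA, and RNA was extracted from sucrose gradient fractions holding 4 or more ribosomes per mRNA (heavy polysomes). This gave 8 groups with 3 replicates each.

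In a sucrose gradient, an mRNA that carries many ribosomes sediments in the heavy fractions, so its level there relative to the lysate follows how much of it is being translated and also how many ribosomes its coding sequence can hold. Synucleins are small presynaptic proteins that bind vesicle membranes, tau stabilizes axonal microtubules, and App is a membrane protein cleaved by secretases to release amyloid-β. Huntingtin is a large scaffold of vesicle transport that Hap1 links to motor proteins, and medium spiny neurons of the striatum are the cells most affected when its glutamine run is expanded. Lrrk2 and Park7 are genes of inherited parkinsonism, a kinase and a sensor of oxidation respectively, while Sod1 removes superoxide and is mutated in a familial form of motor neuron disease.

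The coding starts of both synucleins are shown because the genes are related enough to ask whether their reads could be exchanged, and that of *Htt* because it holds the glutamine run (GRCm38, GENCODE transcripts, each within a single exon). *Sncb* at chr13:54765594-54765683 and *Sncg* at chr14:34374491-34374580 lie on the minus strand, and capitals mark the 72 of 90 bases (80.0%) that both share.
Sncb: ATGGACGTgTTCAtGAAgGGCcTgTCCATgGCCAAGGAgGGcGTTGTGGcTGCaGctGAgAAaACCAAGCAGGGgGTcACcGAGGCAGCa
Sncg: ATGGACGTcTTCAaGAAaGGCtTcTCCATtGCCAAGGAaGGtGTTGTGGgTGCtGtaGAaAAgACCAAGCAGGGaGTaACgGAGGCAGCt
The start of *Htt* at chr5:34761907-34762026 lies on the plus strand, and capitals mark its 7 consecutive glutamine codons.
Htt: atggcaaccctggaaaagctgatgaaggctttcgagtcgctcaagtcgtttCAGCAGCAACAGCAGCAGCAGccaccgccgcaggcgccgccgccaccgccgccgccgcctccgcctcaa
Differences between the synuclein sequences recur along the stretch, and the authors discarded alignments with more than 3 mismatches. The genes differ widely in length: the transcript of *Sod1* holds 641 bases with 462 of coding sequence, that of *Sncg* 852 with 369, that of *Park7* 908 with 567 and that of *Sncb* 1351 with 399. The others are longer, with 3316 bases for *Hap1*, 5253 for *Mapt*, 8167 for *App* (coding sequence 2310), 8275 for *Lrrk2* (coding sequence 7581) and 13215 for *Htt* (coding sequence 9360, over 67 exons). Each length is that of the longest coding transcript, with preference for those linked to RefSeq. Which isoform the striatum uses was not tested, and the values per kilobase, length classes and length trends below rest on this choice. In GENCODE, *Htt* overlaps *Msantd1* and *Hap1* overlaps *Gm20394* on the same strand. The authors counted with UCSC gene models in HTSeq's union mode, which leaves a read that falls on several genes uncounted, and whether these overlaps exist in those models was not tested.

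Assigned reads ranged from 9280589 to 34703044 per library, and replicates within a group correlated at 0.935 to 0.979 across genes. In lysates, 15.2 to 26.1% of the reads belonged to *Bc1*, a noncoding RNA of neurons, against 0.897 to 3.85% in heavy polysomes. Levels below are read counts scaled to library size by the trimmed mean of M values (CPM). *Rps6* carries point substitutions in the knockin that read counts cannot detect. Its group means lay between 317 and 441 CPM, and its log2 fold change between genotypes ranged from -0.05 to 0.13 (adjusted p 0.819 to 1, edgeR). All 9 markers of medium spiny neurons measured, such as *Ppp1r1b* and *Drd2*, were detected in each group, with summed levels of 3524 to 7663 CPM.

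Read depth differed strongly among the genes. *App* had a median of 11237 reads per library and *Mapt* 7799, whereas *Sncg* had 67.5, with 10 reads in its lowest library and 502 in its highest. Compared per kilobase of transcript in wild-type Acb lysates, *Sod1* stood first at 478 ± 70.0 CPM per kb (SD, n = 3), followed by *Sncb* at 172 ± 11.1. *Park7*, *App*, *Hap1* and *Mapt* formed a middle group between 132 and 87.0 CPM per kb in which neighbors in the order overlapped between replicates. *Htt* at 8.22, *Lrrk2* at 6.11 and *Sncg* at 4.63 CPM per kb were the lowest, and their replicates also overlapped. In wild-type DS lysates *Sod1* (381 CPM per kb) and *Sncb* (297) again came first, and *Hap1* stood at 22.3 CPM per kb, below *App* at 92.6. Between the highest and the lowest group mean, *Hap1* varied 8.97-fold and *Sncg* 7.64-fold, whereas *App* varied 1.88-fold. Both extremes of *Hap1* were knockin polysome groups, whose values entered its selection. In lysates its group means ran from 73.9 CPM in wild-type DS to 332 CPM in wild-type Acb.

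**Figure D1:**
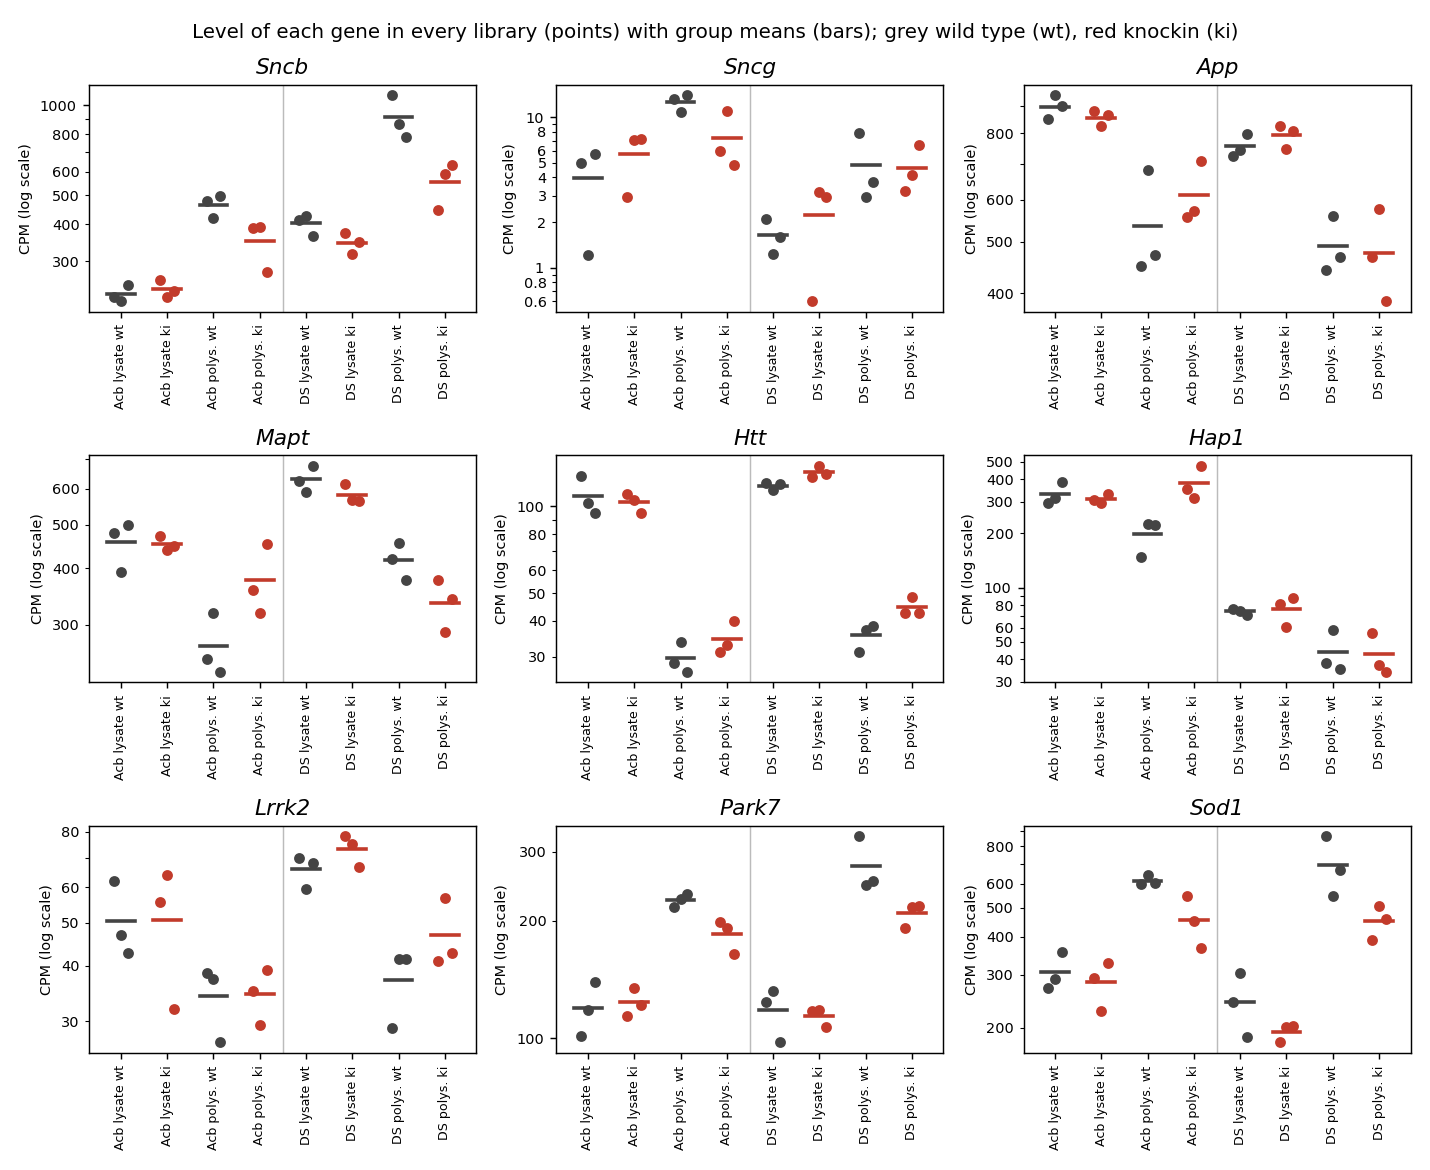
Level of each of the 9 genes in CPM (log scale) in all 24 libraries, arranged by region, fraction (lysate or polysomes) and genotype, with points for replicates and bars for group means. *Hap1* lies several-fold higher in every Acb group than in the DS group of the same fraction and genotype, and *Sncb*, *Park7* and *Sod1* lie higher in polysomes than in lysates of the same region and genotype.

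Heavy polysomes were first compared with lysates to ask how each mRNA is distributed between total and heavily translated RNA. In wild-type Acb all 9 genes differed at an adjusted p under 0.05, with the short transcripts *Sncb*, *Sncg*, *Park7* and *Sod1* higher in polysomes and *App*, *Mapt*, *Htt*, *Hap1* and *Lrrk2* lower. Among all genes tested, 13.0% were called higher and 12.9% lower in that comparison. In wild-type DS 3 genes were higher (all genes, 12.8%) and 5 lower (11.5%), *Sncg* being the exception. In knockin Acb 3 were higher (7.70%) and 2 lower (9.50%), and in knockin DS 3 were higher (13.8%) and 5 lower (14.8%). The levels of *Sncb* and *Hap1* in these polysome libraries also entered their selection, so their calls here are no evidence of a difference. The counts above include them, and their values below are given without a test. Among the other genes, *Park7* and *Sod1* were called higher in every comparison and *Sncg* in wild-type Acb only. *App* and *Htt* were called lower in every comparison, and *Mapt* and *Lrrk2* in all but knockin Acb.

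Among the synucleins, *Sncb* measured 228, 220 and 249 CPM in the wild-type Acb lysates and 479, 418 and 496 CPM in the polysomes (log2 fold change 0.95 ± 0.14 (SE)). In wild-type DS it measured 414, 427 and 364 CPM in lysates and 1081, 869 and 783 CPM in polysomes (1.18 ± 0.15). No polysome library of *Sncb* overlapped the lysates of its group. The knockin values were smaller, at 0.51 ± 0.16 in the Acb and 0.64 ± 0.13 in the DS. *Sncb* was selected for its change between genotypes in polysomes, so these values and this difference between the genotypes are only a description. *Sncg* measured 4.97, 1.21 and 5.66 CPM in wild-type Acb lysates and 13.2, 10.8 and 14.0 CPM in polysomes, a log2 fold change of 1.64 ± 0.39 (adjusted p = 0.00241). In wild-type DS *Sncg* gave 1.53 ± 0.63, which missed the threshold in edgeR (adjusted p = 0.0801) and passed it in DESeq2 (adjusted p = 0.0474). Its knockin values were 0.33 ± 0.42 in the Acb and 1.01 ± 0.59 in the DS, neither past the threshold, and the lysate counts of *Sncg* behind them were as low as 10 reads.

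*Park7*, the oxidation-sensitive chaperone-like protein, rose from 101, 118 and 139 CPM in wild-type Acb lysates to 217, 227 and 233 CPM in polysomes (0.87 ± 0.15, adjusted p = 6.98e-05). *Sod1* rose from 271, 291 and 357 CPM to 599, 642 and 605 CPM (0.96 ± 0.14, adjusted p = 1.2e-05), again with no overlap. In wild-type DS the log2 fold change was 1.22 ± 0.16 for *Park7* and 1.50 ± 0.17 for *Sod1*, the latter a 2.84-fold difference. In knockin mice *Park7* rose by 0.56 ± 0.16 in the Acb (adjusted p = 0.016) and 0.83 ± 0.14 in the DS (2.35e-06), and *Sod1* by 0.66 ± 0.17 (0.00764) and 1.18 ± 0.13 (3.07e-10).

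*Htt* was the most depleted of the 9 genes from heavy polysomes in each of these 4 comparisons. Its transcripts measured 128, 103 and 95.2 CPM in wild-type Acb lysates and 28.6, 33.7 and 26.6 CPM in polysomes, so polysomes held 0.263 of the lysate level (log2 fold change -1.93 ± 0.17, adjusted p = 8.39e-09). In wild-type DS the levels were 121, 114 and 120 CPM against 31.3, 37.2 and 38.4 CPM (-1.73 ± 0.17, adjusted p = 2.04e-08). The knockin values were -1.60 ± 0.18 in the Acb (adjusted p = 7.8e-07) and -1.60 ± 0.15 in the DS (3.31e-12). Lysate and polysome libraries of *Htt* were separate in every group.

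*Hap1*, its binding partner, measured 295, 313 and 389 CPM in wild-type Acb lysates and 147, 226 and 224 CPM in polysomes (-0.79 ± 0.16). It was likewise lower in polysomes in wild-type DS (-0.76 ± 0.19) and in knockin DS (-0.88 ± 0.18). In knockin Acb the lysates held 309, 295 and 331 CPM and the polysomes 355, 314 and 476 CPM, which overlapped (0.27 ± 0.17). *Hap1* was also selected for its change between genotypes in polysomes, so these values and its contrast between wild-type and knockin Acb are only a description.

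*App* fell in all 4 comparisons, by 0.80 ± 0.15 on the log2 scale in wild-type Acb (adjusted p = 0.000211), 0.63 ± 0.14 in wild-type DS (0.000983), 0.51 ± 0.15 in knockin Acb (0.02) and 0.77 ± 0.13 in knockin DS (3.04e-06). *Mapt* fell from 478, 393 and 500 CPM to 251, 318 and 236 CPM in wild-type Acb (-0.82 ± 0.15, adjusted p = 0.000143), and also in wild-type DS (-0.60 ± 0.14, 0.00154) and knockin DS (-0.83 ± 0.13, 6.76e-07). In knockin Acb the *Mapt* polysomes, at 359, 319 and 454 CPM, reached into the range of the lysates at 472, 439 and 448 CPM (-0.28 ± 0.16, adjusted p = 0.244). *Lrrk2* fell in wild-type Acb (-0.62 ± 0.19, adjusted p = 0.0162), wild-type DS (-0.82 ± 0.19, 0.0014) and knockin DS (-0.68 ± 0.17, 0.000889), and gave -0.57 ± 0.23 in knockin Acb (0.0835).

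The fold change also varied with transcript length across the whole table. In wild-type Acb the median log2 fold change of genes up to 1000 bases long was 0.46 and that of genes over 8000 bases was -0.58, and the Spearman correlation of length with the fold change across genes was -0.40 there, -0.505 in wild-type DS, -0.275 in knockin Acb and -0.576 in knockin DS (genes are not independent replicates). In knockin Acb the class up to 1000 bases had a median of -0.13, below that of the class from 1000 to 2000 bases at 0.32. *Hap1* lay below 0 in wild-type Acb, wild-type DS and knockin DS, whereas the median of its class, 2000 to 4000 bases, was 0.089, 0.063 and 0.081. Within its length class, *Sod1* lay above the median of the class in all 4 comparisons and *Htt* below it. When a trend on transcript length was removed from each library, *Htt* and *Sod1* still passed in all 4 comparisons, with smaller values for *Htt*: -1.32 in wild-type Acb, -0.97 in wild-type DS, -1.05 in knockin Acb and -0.74 in knockin DS. *Sod1* went to 0.56, 0.94, 0.87 and 0.43 in the same order. *Hap1* stayed between -0.70 and -0.83 in wild-type Acb, wild-type DS and knockin DS. The polysome levels of *Hap1* and *Sncb* entered their selection, so their values with the trend kept or removed are given without a test. The calls of *App* were lost in all 4 (log2 fold change -0.08 to -0.41, adjusted p 0.0603 to 0.804). Those of *Lrrk2* were lost wherever it had been called (-0.06 to -0.27, adjusted p 0.343 to 0.865). *Mapt* in wild-type DS (-0.28, 0.225) and *Park7* in knockin DS (0.16, 0.45) also lost theirs. *Sncb* went to 0.27 in knockin Acb and 0.14 in knockin DS. Removing a trend on coding length instead, an alternative chosen after seeing the data, turned *Lrrk2* to 0.22, 0.094 and 0.27 in wild-type Acb, wild-type DS and knockin DS, none of them past the threshold. It also ended the calls of *App* in wild-type DS (-0.30, adjusted p = 0.149) and *Park7* in knockin Acb (0.40, 0.0746) and knockin DS (0.29, 0.112), and added *Mapt* in knockin Acb (-0.57, 0.0128). *Sncb* in knockin DS went to 0.031 with it. *Htt* was -1.01, -0.73, -0.74 and -0.57 under that alternative, each past the threshold.

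Some calls were lost when a single library was left out, which also leaves fewer samples. In wild-type Acb *Lrrk2* lost its call without heavy replicate 3 (-0.47, adjusted p = 0.116) or lysate replicate 1 (-0.45, 0.152). In knockin Acb *App* lost its call without heavy replicate 1 (-0.43, 0.0865) or 2 (-0.45, 0.0896) or lysate replicate 1 (-0.50, 0.0706) or 3 (-0.52, 0.0515), and *Park7* without the same 4 libraries (0.51, 0.0539; 0.53, 0.0651; 0.49, 0.0919; 0.53, 0.0631). *Sod1* there lost it without heavy replicate 1 (0.52, 0.0503) or lysate replicate 2 (0.51, 0.0971). With a single library other than heavy replicate 3 left out, *Sncb* there gave 0.43 to 0.55, stated without a test. Conversely, *Mapt* in knockin Acb passed without heavy replicate 3 (-0.46, 0.0142) and *Lrrk2* without lysate replicate 3 (-0.83, 0.012).

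**Figure D2:**
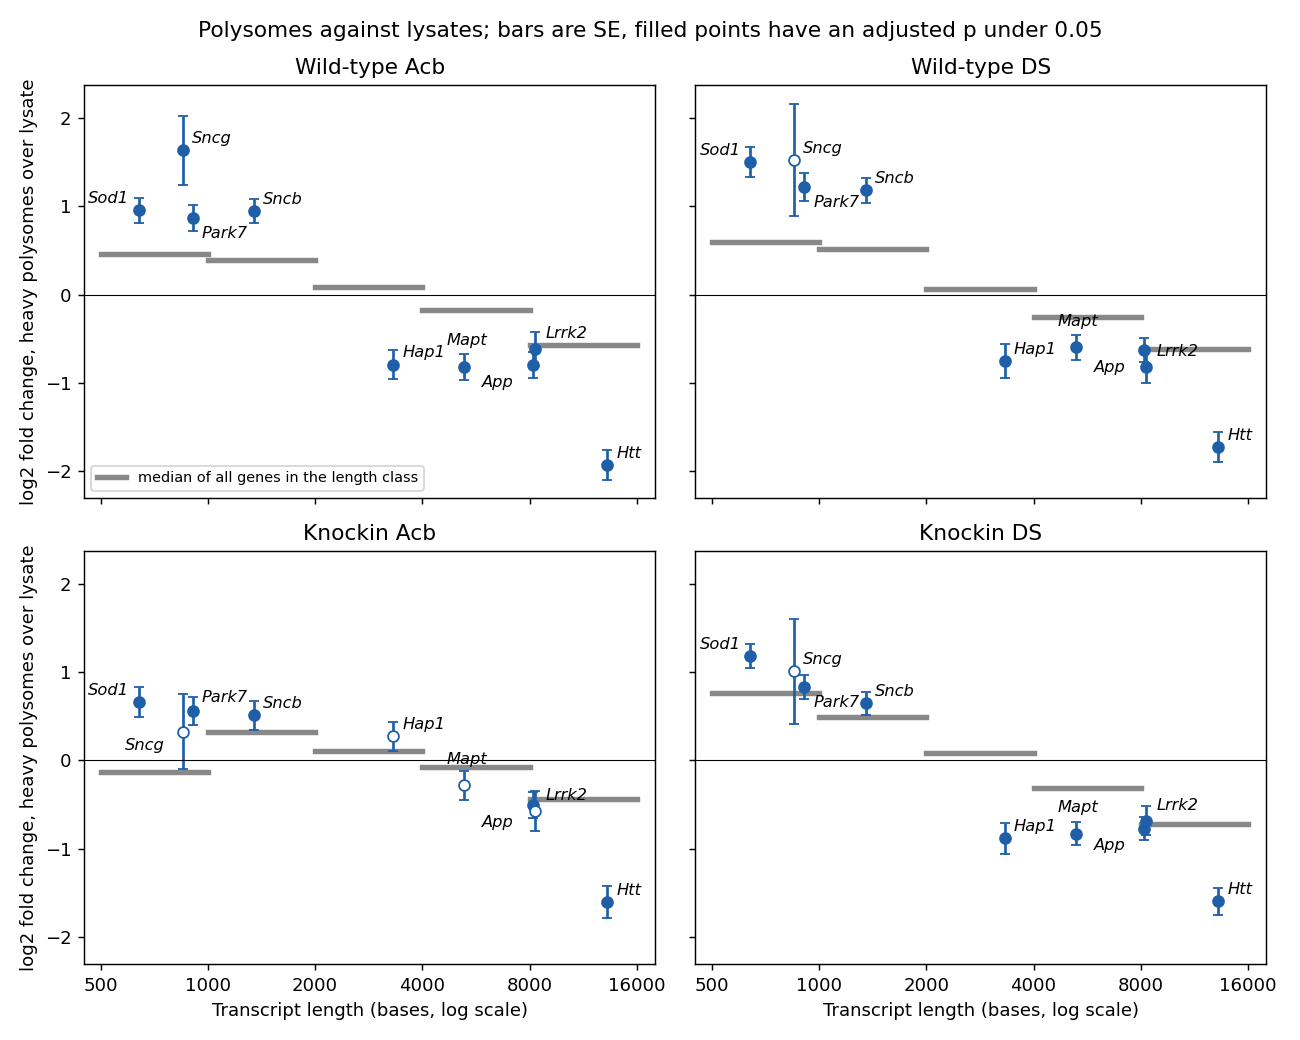
Log2 fold change of heavy polysomes over lysates (y) against transcript length in bases (x, log scale) for the 9 genes in each genotype and region, with SE bars, filled points at an adjusted p under 0.05 (for *Sncb* and *Hap1* not independent of their selection) and gray lines for the median of all genes in 5 length classes. The 4 short transcripts lie above 0 and *Htt*, the longest, lies lowest in each panel, between -1.60 and -1.93.

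The regions were compared next, within each genotype and fraction. *Hap1* differed most: wild-type lysates held 332 ± 49.5 CPM in the Acb and 73.9 ± 2.93 CPM in the DS (SD, n = 3), a 4.58-fold difference (log2 fold change 2.20 ± 0.13 (SE), adjusted p = 3.55e-17). In wild-type polysomes the 3 Acb libraries measured 147, 226 and 224 CPM and the 3 DS libraries 38.2, 57.9 and 35.3 CPM, which is 4.57-fold (2.19 ± 0.22). Knockin lysates gave 2.05 ± 0.12 (adjusted p = 6.81e-16) and knockin polysomes 3.18 ± 0.23, a 9.09-fold difference. The polysome values of *Hap1* and *Sncb* entered their selection, so their differences between regions in polysomes are given without a test. No Acb library of *Hap1* overlapped a DS library within any of these 4 comparisons.

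*Sncb* was lower in the Acb in all 4. In wild-type lysates it measured 232 ± 15.1 CPM in the Acb and 402 ± 33.4 CPM in the DS (-0.76 ± 0.11, adjusted p = 2.39e-06), and in wild-type polysomes 465 ± 40.8 against 911 ± 153 CPM (-0.96 ± 0.16). In knockin mice the difference was -0.48 ± 0.10 in lysates (0.000785) and -0.64 ± 0.18 in polysomes. The last of these was -0.43 with the transcript length trend removed and -0.019 with the coding length trend removed.

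*Mapt* was lower in the Acb in wild-type lysates, with 478, 393 and 500 CPM against 626, 592 and 675 CPM in the DS (-0.44 ± 0.11, adjusted p = 0.0043). It was also lower in wild-type polysomes (-0.63 ± 0.16, 0.0212) and in knockin lysates (-0.34 ± 0.09, 0.00965), whereas knockin polysomes gave 0.19 ± 0.18 (0.517). These calls were lost without Acb lysate replicate 2 in wild-type lysates (-0.34, 0.0926), without Acb heavy replicate 1 (-0.58, 0.0929) or 3 (-0.54, 0.142) or DS heavy replicate 1 (-0.62, 0.064) in wild-type polysomes, and without DS lysate replicate 1 in knockin lysates (-0.29, 0.101) or with the transcript length trend removed there (-0.26, 0.0675). *Sncg* was higher in Acb polysomes of wild-type mice, with 13.2, 10.8 and 14.0 CPM against 7.85, 2.94 and 3.70 CPM (1.42 ± 0.36, adjusted p = 0.0197). That call was lost without any of the 3 Acb libraries or DS replicates 2 and 3 (1.17 to 1.52, adjusted p 0.0525 to 0.0981). *Sod1* was higher in Acb lysates of knockin mice, with 293, 228 and 328 CPM against 179, 201 and 202 CPM (0.57 ± 0.12, adjusted p = 0.000457), and wild-type lysates gave 0.35 ± 0.13 (0.0739).

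Counted over the 9 genes, 3 differed between regions in wild-type lysates (all genes, 12.7%), 4 in wild-type polysomes (8.15%), 4 in knockin lysates (10.9%) and 2 in knockin polysomes (18.6%). The 2 in knockin polysomes were *Sncb* and *Hap1*, the genes selected on polysome values, and without them 0 of 7 passed there and 2 of 7 in wild-type polysomes. *App* passed in wild-type lysates with DESeq2 (0.28, adjusted p = 0.00918). With the replicate number as a block, *Sod1* (0.37, 0.0213) and, barely under the cutoff, *App* (0.28) also passed in wild-type lysates, and *Lrrk2* passed in knockin lysates (-0.56, 0.00877). With no filter beyond 1 read, *Sod1* passed in wild-type lysates (0.35, 0.0266) and *Lrrk2* in knockin lysates (-0.51, 0.0148). Bias-adjusted edgeR also called *Lrrk2* in knockin lysates (-0.51, 0.0402). *Sod1* also passed in wild-type lysates without DS lysate replicate 2 (0.55, 0.00946) and *Lrrk2* in knockin lysates without Acb lysate replicate 2 (-0.70, 0.015). In knockin polysomes, removal of the transcript length trend added *Sncg* (1.23, 0.0162), *Lrrk2* (-0.61, 0.0275) and *Sod1* (0.77, 0.00137). *Htt* and *Park7* passed in none of the 4 comparisons as fitted, with values of -0.35 to -0.09 for *Htt* and -0.28 to 0.14 for *Park7*. With a replicate block added and the transcript length trend removed, *Htt* passed in wild-type polysomes (-0.53, adjusted p = 0.0469). The dissections also differed in other cells' mRNAs: all 5 markers of cortical excitatory neurons, such as *Slc17a7*, were lower in the Acb in each of the 4 comparisons, with summed levels of 61.8 to 228 CPM in Acb libraries and 669 to 1030 CPM in DS libraries, and none of the 5 was at 0 in a group. In wild-type lysates 5 of 5 microglial markers (summed 152 to 179 CPM in the Acb, 76.8 to 90.5 CPM in the DS), 3 of 5 astrocytic markers (603 to 814 and 351 to 365 CPM) and 2 of 4 dopaminergic markers (21.5 to 26.5 and 4.76 to 11.3 CPM) were higher in the Acb, with *Slc18a2* of the last list at 0 in the DS. In the same lysates summed cholinergic markers were 52.2 to 69.0 CPM in the Acb against 25.1 to 36.5 CPM in the DS, with 1 of 4 called higher in the Acb. Of 9 markers of medium spiny neurons 2 were higher and 4 lower in the Acb (median log2 fold change -0.30). Among markers tested, 3 of 6 oligodendrocyte, 2 of 3 choroid plexus, 1 of 3 ependymal and 0 of 4 endothelial ones were higher in the Acb, and 0 were lower. The part of these cells in the differences between regions was not tested, and in bulk tissue fewer cells of a type and less RNA per cell cannot be told apart.

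**Figure D3:**
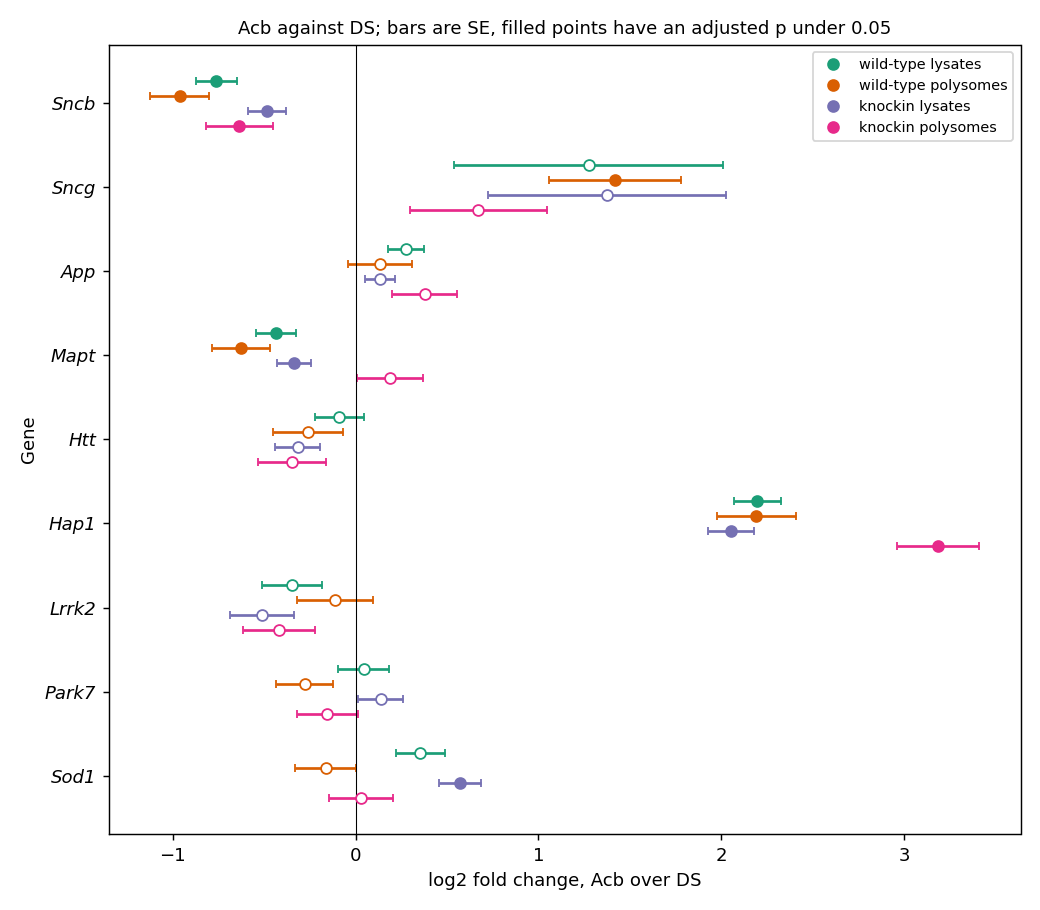
Log2 fold change of Acb over DS for the 9 genes in lysates and polysomes of each genotype, with SE bars and filled points at an adjusted p under 0.05 (for *Sncb* and *Hap1* in polysomes not independent of their selection). *Hap1* lies between 2.05 and 3.18 and *Sncb* between -0.96 and -0.48, while *Htt* (-0.35 to -0.09) and *Park7* (-0.28 to 0.14) have open points in all 4 comparisons.

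The knockin was then compared with wild-type littermates, which addresses whether the phosphorylation sites of rpS6 bear on the translation of these mRNAs. For the 2 genes selected on this contrast the values are descriptive. In Acb polysomes *Hap1* measured 147, 226 and 224 CPM in wild-type and 355, 314 and 476 CPM in rpS6 P-/- mice, a log2 fold change of 0.98 ± 0.20 without overlap. In DS polysomes it measured 38.2, 57.9 and 35.3 CPM and 56.3, 37.3 and 34.0 CPM, with overlap (-0.03 ± 0.22). *Sncb* measured 1081, 869 and 783 CPM in wild-type and 444, 588 and 631 CPM in knockin DS polysomes (-0.71 ± 0.17), and 479, 418 and 496 CPM against 388, 392 and 275 CPM in Acb polysomes (-0.37 ± 0.16). Neither comparison of *Sncb* overlapped. Both genes were selected on this contrast, so separation of their replicates here is no evidence of a difference. With a coding length trend removed, the value of *Sncb* in Acb polysomes turned to 0.17, and with a transcript length trend removed it was -0.16.

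Of the 7 other genes, 0 were called between genotypes in Acb polysomes (edgeR called 0% of all genes), 3 had an unadjusted p under 0.05 (21.7%) and 1 of the 6 that DESeq2 tested was called (14.1%). The 0 over all genes depended on the settings: edgeR called 549 genes with no filter beyond 1 read and 98 with the replicate block. The gene that DESeq2 called was *Mapt*, at 251, 318 and 236 CPM in wild-type and 359, 319 and 454 CPM in knockin libraries. These were separated by less than 1 CPM at their closest (0.53 ± 0.18, adjusted p = 0.129 with edgeR and 0.0384 with DESeq2). The other 2 with a low unadjusted p were *Sncg* (-0.75 ± 0.28, adjusted p = 0.145) and *Sod1*, at 599, 642 and 605 CPM against 545, 453 and 368 CPM (-0.40 ± 0.16, 0.172). *App* gave 0.23 ± 0.18, *Htt* 0.27 ± 0.18, *Lrrk2* 0.05 ± 0.19 and *Park7* -0.25 ± 0.15, all with adjusted p of 0.338 or more. Transcript length moved with this contrast: genes up to 1000 bases had a median log2 fold change of -0.62, and 3.62% of them were above 0. With that trend removed, the values of *Sod1* and *Park7* turned to 0.24 and 0.20, and that of *Sncg* moved to -0.27 (adjusted p = 0.624).

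In DS polysomes 0 of the 7 were called by edgeR (all genes, 0.0440%), 2 had an unadjusted p under 0.05 (6.42%) and 0 of 6 were called by DESeq2 (0.297%). *Sod1* measured 864, 549 and 667 CPM in wild-type and 392, 505 and 459 CPM in knockin libraries, which did not overlap (-0.61 ± 0.17, adjusted p = 0.347), and leaving out wild-type heavy replicate 2, the lowest of its group, gave -0.75 with an adjusted p of 0.0301. That was the only 1 of 15 alternatives to pass for *Sod1* here, and its value ranged from -0.77 to -0.42 over them. *Park7* measured 328, 246 and 252 CPM against 191, 217 and 218 CPM (-0.39 ± 0.17, adjusted p = 0.772). *Mapt* gave -0.30 ± 0.17, opposite in sign to the Acb, and *Htt* and *Lrrk2* 0.34 each.

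In whole lysates, which *Sncb* and *Hap1* were not selected on, 0 of the 9 genes were called in the Acb by edgeR (0.00650%) or DESeq2 (0.00650%), and 0 had an unadjusted p under 0.05 (2.96%). *Hap1* there measured 295, 313 and 389 CPM in wild-type and 309, 295 and 331 CPM in knockin lysates (-0.10 ± 0.12), and *Sncb* gave 0.06 ± 0.12. In DS lysates 0 of 9 were called by edgeR (0.122%), 2 had an unadjusted p under 0.05 (9.07%) and 0 of 8 were called by DESeq2 (2.02%). Those 2 were *Sod1*, at 243, 304 and 186 CPM against 179, 201 and 202 CPM (-0.35 ± 0.12, adjusted p = 0.256, or -0.51 and 0.0228 without wild-type lysate replicate 3, the lowest of its group), and *Sncb*, at 414, 427 and 364 CPM against 372, 316 and 348 CPM (-0.24 ± 0.10, 0.412). For *Sod1* this was again the only 1 of 15 alternatives to pass, with values from -0.51 to -0.15 over them. Both sets of DS lysates overlapped.

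**Figure D4:**
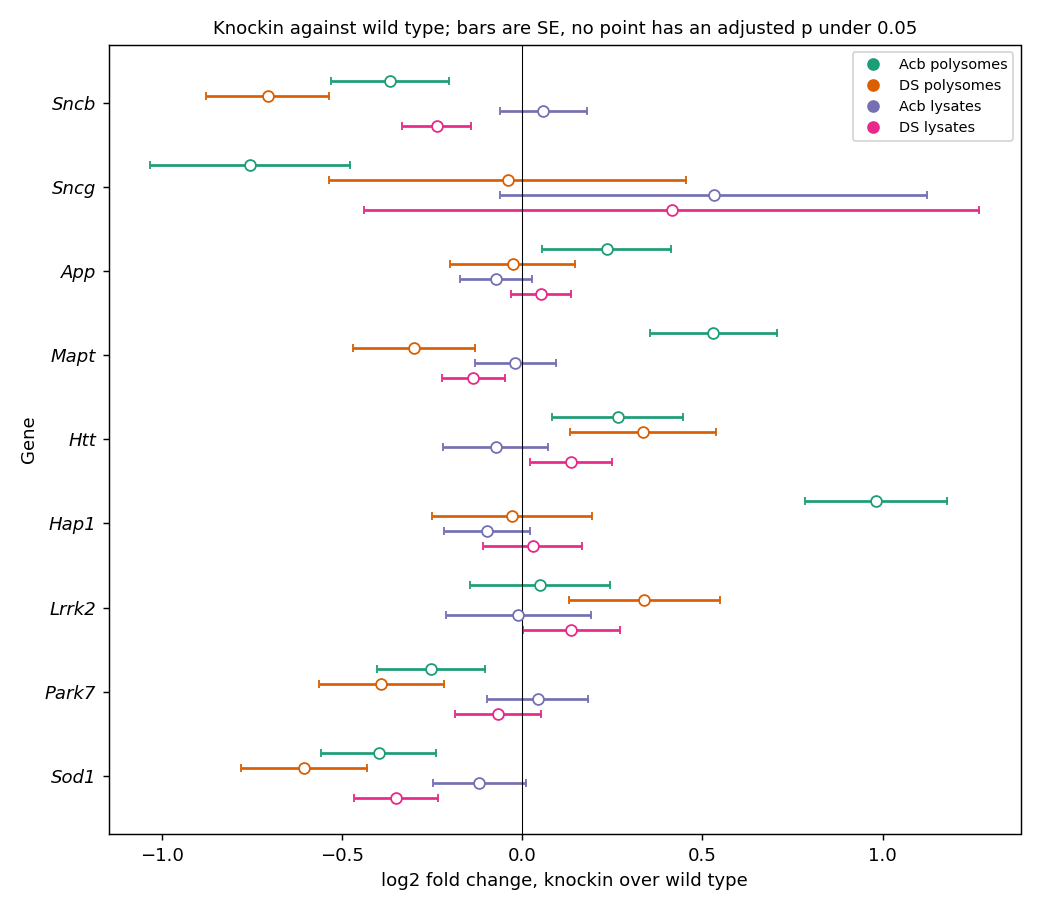
Log2 fold change of rpS6 P-/- over wild type for the 9 genes in lysates and polysomes of each region, with SE bars; *Sncb* and *Hap1* were selected for their polysome values. In Acb polysomes *Hap1* lies at 0.98 and *Mapt* at 0.53, and in DS polysomes *Sncb* lies at -0.71 and *Sod1* at -0.61, while *Hap1* lies at -0.10 in Acb lysates.

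Translational efficiency, the genotype difference in polysomes minus that in lysates, was 1.08 ± 0.24 for *Hap1* in the Acb and -0.43 ± 0.21 and -0.50 ± 0.20 for *Sncb* in the Acb and DS, given as descriptions. Of the 7 other genes 0 were called in the Acb by edgeR (0%) or DESeq2 (0%), and 2 had an unadjusted p under 0.05 (11.9%), *Mapt* at 0.55 ± 0.22 (adjusted p = 0.326) and *Sncg* at -1.30 ± 0.60 (0.391). In the DS 0 were called by edgeR (0%) or DESeq2 (0%) and 0 had an unadjusted p under 0.05 (4.90%). For the difference of the genotype effect between regions in polysomes, 0 of the 7 were called by edgeR (0.00592%), 1 had an unadjusted p under 0.05 (13.8%) and 1 of 6 was called by DESeq2 (3.06%). That gene was *Mapt*, whose genotype difference was higher in the Acb by 0.85 ± 0.24 (adjusted p = 0.13 with edgeR, 0.0406 with DESeq2). *Hap1* gave 1.03 ± 0.31 and *Sncb* 0.36 ± 0.25, as descriptions.

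Genes that work with these proteins were followed in 6 lists of 82 genes, all of them tested. Between polysomes and lysates 14 were higher and 33 lower in wild-type Acb, 16 and 26 in wild-type DS, 14 and 19 in knockin Acb, and 16 and 33 in knockin DS, against the shares of all genes given above. The values by list below are for wild-type Acb, where 13.0% of all genes were called higher and 12.9% lower. No length trend was removed from them, and the part of transcript length in them was not tested. Among 15 partners of huntingtin and Hap1 in transport, 0 were higher and 9 lower in wild-type Acb, where the list's median was -0.75 against 0.03 for all genes; the kinesin heavy chains *Kif5a* (-1.45 ± 0.18) and *Kif5b* (-1.23 ± 0.15) fell most. Of 13 microtubule-associated proteins and tau kinases 4 were higher, among them *Stmn1* (stathmin, 1.07 ± 0.13), and 3 lower, among them *Map1a* (-1.76 ± 0.15) and *Map1b* (-1.69 ± 0.14). Of 13 genes of superoxide and peroxide defense 6 were higher, with the thioredoxin *Txn1* at 1.09 ± 0.16 and the peroxiredoxin *Prdx6* at 1.05 ± 0.14, and 3 lower, with the glutathione peroxidase *Gpx4* at -0.92 ± 0.19. Of 15 genes of the App family and its processing 2 were higher, *Aplp1* (0.60 ± 0.13) and *Psenen* (0.58 ± 0.18), and 4 lower, among them *Sorl1* (-1.54 ± 0.19) and *Aplp2* (-0.80 ± 0.15). Of 12 further parkinsonism genes 1 was higher (the ubiquitin hydrolase *Uchl1*, 0.97 ± 0.15) and 4 lower, and of 14 genes of motor neuron disease and frontotemporal dementia 1 was higher (*Chmp2b*, 0.85 ± 0.15) and 10 lower.

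Between genotypes 0 of the 82 were called by edgeR in polysomes or lysates of either region. In Acb polysomes 25 had an unadjusted p under 0.05 (all genes, 21.7%) and DESeq2 called 9 higher and 3 lower (14.1% in either direction). In DS polysomes 10 had an unadjusted p under 0.05 (6.42%) and DESeq2 called 0 (0.297%). In lysates the unadjusted counts were 1 in the Acb (2.96%) and 14 in the DS (9.07%), and DESeq2 called 0 (0.00650%) and 3 (2.02%). For translational efficiency 0 were called by either tool, with 15 in the Acb (11.9%) and 7 in the DS (4.90%) at an unadjusted p under 0.05. The DESeq2 shares are over the genes to which it gave an adjusted p. These were 7733 genes in Acb polysomes, 5726 in DS polysomes, 15391 in Acb lysates and 4712 in DS lysates. How many of the 82 were among them was not counted, so counts and shares may differ in their base.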

How the data were processed

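Raw counts of reads per gene, as deposited by the authors, were used for all 24 libraries. Per the labels and the study's methods, reads were processed with CASAVA 1.8.2 and FastQC, aligned to mm10 (GRCm38) with TopHat2 2.0.13 and Bowtie2 2.2.3, and counted by strand with HTSeq 0.6.1p1; alignments with more than 3 mismatches were discarded. Each comparison kept the genes whose libraries held at least 15 reads in sum. Groups of 3 libraries were compared with edgeR 4.0.16 (TMM scaling, quasi-likelihood F test, Benjamini-Hochberg over all genes, cutoff 0.05) in R 4.3.3; SE is the fold change divided by the root of F. Translational efficiency and the difference of the genotype effect between regions were interaction terms. Acb against DS within a genotype and fraction was a direct comparison of groups. DESeq2 1.42.0 was an alternative, as were other scalings, filters, length trends (loess, span 0.5), a replicate block and leaving out each library (for translational efficiency each same-numbered lysate and polysomes together). The 9 genes, lists and markers were chosen with earlier results of these data known. From the lists at most 2 genes per direction were named, by fold change among those called with at least 50 reads on average. Positions and lengths came from GENCODE on GRCm38, with 1 transcript per gene. Those linked to RefSeq were preferred, then coding ones, then the longest. Lysate and polysomes come from the same homogenate by the protocol, but the residuals of same-numbered pairs correlated at -0.0376 to 0.0743, 0 of 12 above 0.1. P-values measure the spread between pools of mice.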

Additional observations from a re-analysis of the deposited data

How the results depend on the processing

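Counts of called genes among the 9 (or the 7 not selected on the contrast) changed by over 1.5 times under these alternatives. Here and below, counts among the 9 that involve polysomes include *Sncb* and *Hap1*, whose values there entered their selection. With the transcript length trend removed, alone or with the replicate block, polysomes against lysates gave 5 calls in wild-type DS in place of 8, 3 in knockin Acb in place of 5 and 4 in knockin DS in place of 8, and the coding length trend gave 5 in knockin DS. Acb against DS in knockin polysomes gave 4 in place of 2 with the transcript trend (alone or with the block) and 4 with the coding trend. With the replicate block alone, Acb against DS in wild-type lysates gave 5 in place of 3. DESeq2 gave 1 in place of 0 for genotype in Acb polysomes and for genotype by region, and the replicate block with the transcript trend gave 1 for the latter (*Sod1*, 1.03, adjusted p = 0.0463). *Lrrk2* reversed with the coding trend removed, to 0.22, 0.094 and 0.27. The block alone changed no call of a tested gene between polysomes and lysates or between genotypes; same-numbered libraries of different genotypes correlated at -0.294 to 0.319 and of different regions at -0.255 to 0.217, so their numbers were not taken as pairs.

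Leaving out single libraries gave 8 to 9 calls for polysomes against lysates in wild-type Acb, 1 to 6 in knockin Acb and 8 in the DS of either genotype. Acb against DS gave 2 to 4 in wild-type lysates, 2 to 3 in wild-type polysomes, 3 to 5 in knockin lysates and 1 to 2 in knockin polysomes. Genotype gave 0 to 1 in DS polysomes and in DS lysates, and 0 in the other comparisons. For translational efficiency the lysate and polysome libraries of the same genotype and number were left out together. Scaling by raw library size shifted the median of all genes by 0.192 to 0.275 between polysomes and lysates and by 0.108 and 0.112 between regions in wild-type lysates and polysomes; it changed the sign of *Mapt* in knockin Acb, of *Sncg*, *App* and *Hap1* between genotypes in DS polysomes and of *Lrrk2* in Acb lysates, none of them called. Over all genes, calls between genotypes in Acb polysomes went from 0 to 549 with no filter beyond 1 read, 98 with the replicate block and 1090 with DESeq2; in DS polysomes from 7 to 37, 31 and 17; in DS lysates from 19 to 66, 71 and 95; for translational efficiency in the Acb from 0 to 107, 106 and 0; and for genotype by region from 1 to 353, 117 and 236. Removing length trends shifted the all-gene median by up to 0.142. The low counts of *Sncg* limit its precision.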

Other observations

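Between regions, the lists of related genes held a further partner of Hap1: *Ahi1*, which encodes a protein that forms a complex with Hap1, was higher in the Acb by 1.20 ± 0.12 on the log2 scale in wild-type lysates (adjusted p = 2.63e-10, edgeR), 0.77 ± 0.17 in wild-type polysomes (0.00933), 1.22 ± 0.11 in knockin lysates (3.92e-11) and 1.02 ± 0.18 in knockin polysomes (0.00035). *Bdnf*, the neurotrophin whose vesicles huntingtin helps to move, was lower in the Acb by -2.94 ± 0.35, -2.91 ± 0.32, -2.60 ± 0.35 and -2.55 ± 0.25 in the same order. *Stmn1* was lower by -0.78 ± 0.11, -1.15 ± 0.15, -0.84 ± 0.10 and -0.98 ± 0.17. Over all 82 genes, 6 were higher and 11 lower in the Acb in wild-type lysates (12.7% of all genes were called in either direction), 3 and 6 in wild-type polysomes (8.15%), 3 and 13 in knockin lysates (10.9%) and 5 and 10 in knockin polysomes (18.6%); *Gpx1* (-1.42 ± 0.25) and *Gpx4* (-1.54 ± 0.23) were among the 3 antioxidant genes lower in the last. The cortical excitatory markers were lower in the Acb in all 4 comparisons, and their part in these values was not tested.

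As a description over the 24 libraries, which differ in fraction, region and depth, the log2 levels of *Park7* and *Sod1* correlated at 0.938, and those of *Htt* with *Park7* and *Sod1* at -0.921 and -0.911 (Pearson). Among 11970 other genes with at least 50 reads on average, the pattern most like that of *Htt* was *Kif1b* (0.989), that of *Sncb* was *5730409E04Rik* (0.975), that of *Park7* was *Psmb6* (0.975), that of *Sod1* was *Ndufs7* (0.972), that of *Mapt* was *Ap2a2* (0.971) and that of *Hap1* was *Tmem130* (0.97). *App* was closest to *Hadha* (0.964), with its own family member *Aplp2* next (0.959). *Lrrk2* was closest to *Akap13* (0.917) and *Sncg*, the gene with the fewest reads, to *Fam171a1* (0.869).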
